A study of Mus musculus with 26 samples.

Results

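The hepatic transcriptome of mice lacking the nuclear receptors FXR and SHP was set beside that of hepatocytes from mice fed a high fat diet, and the comparison described here is the difference between the 2 log2 fold changes, gene by gene. It used 10 of the 26 RNA-seq libraries of the series, in 4 of its 10 groups, chosen by their labels and by no measured value. Whole liver came from wild type mice (n = 3) and from Fxr-/- Shp-/- mice (n = 3), all C57BL/6J, aged 12 weeks and fed ad libitum. Hepatocytes came from wild type C57BL/6J mice aged 16 weeks after a 10 h fast, on chow (n = 2) or on a high fat diet with 60% fat (n = 2). The genotype label names no tissue restriction of the knockout. The labels used here state neither sex, nor the time on the diet, nor whether a library is 1 animal, so p-values measure only the spread between these libraries, which may be technical. Each effect was taken against the control of its own experiment, and the 2 effects share no library. Tissue, age and feeding differ between the experiments and cancel in the difference only as far as they act alike on both of its arms, so model and tissue cannot be told apart.

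FXR, encoded by Nr1h4, is the receptor through which hepatocytes sense bile acids, and SHP, encoded by Nr0b2, is a corepressor that FXR induces, so loss of the pair removes the main brake on bile acid production. Cholesterol synthesis in the hepatocyte is driven by SREBP2, a transcription factor released from the endoplasmic reticulum when membrane sterols are low, and drug metabolism by CAR and PXR, nuclear receptors for foreign compounds and some bile acids. Many secreted proteins, transporters and cytochromes P450 of mouse liver differ between males and females through the pattern of growth hormone release, with major urinary proteins (Mup genes) typical of males and enzymes such as Cyp2b9 typical of females.

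The targeted genes were examined first. Nr0b2 (chr4:133553376-133556536, GRCm38) was at 14.3, 26.2 and 12.9 CPM (counts scaled to the total of each library) in wild type liver and at 0.562, 1.1 and 1.57 in Fxr-/- Shp-/- liver. Chow hepatocytes held 44 and 69.8 CPM and high fat hepatocytes 49.3 and 33.5. Nr1h4 (chr10:89454234-89533585) was at 145, 150 and 111 CPM in wild type and at 61.4, 52.8 and 54.6 in Fxr-/- Shp-/- liver. Chow hepatocytes held 158 and 160 CPM and high fat hepatocytes 154 and 163. The 3 knockout libraries lay below every other library for both genes, and the chow and high fat libraries overlapped. In the joint edgeR quasi-likelihood fit of the 10 libraries, with p-values adjusted by Benjamini and Hochberg over the 14280 genes tested, Nr0b2 fell by 4.03 on the log2 scale (SE 0.4, adjusted p = 2.74e-05) and Nr1h4 fell by 1.27 (SE 0.12, adjusted p = 1.5e-05). All fold changes, SEs and adjusted p-values below come from this fit, and a gene is called raised, lowered or different when its adjusted p is under 0.05.

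More genes were called in the knockout effect, with 3 libraries per group, than in the diet effect, with 2. Such counts, and the shares drawn from them, depend on the number of libraries as well as on the effects. The knockout raised 3136 genes (22% of those tested) and lowered 2975 (20.8%), whereas the diet raised 1646 (11.5%) and lowered 1395 (9.77%). The difference of the effects was called for 2297 genes (16.1%), higher in the knockout effect for 1139 (7.98%) and lower for 1158 (8.11%). Of these 2297 genes, 56.9% were called in the knockout effect only, 18.3% in the diet effect only, 13.2% in opposite directions in the 2 effects, 8.6% in the same direction and 3% in neither. The number of diet calls rests on 4 libraries: it was 1248 and 1670 without high fat replicates 1 and 2, 1309 and 1630 without chow replicates 1 and 2, and 4063 without Fxr-/- Shp-/- replicate 3, the library that stands farthest from its group. The calls of the difference numbered 1440 and 1428 without chow replicates 1 and 2 and 1269 without high fat replicate 2. With upper quartile scaling the diet calls were 70.6% raised (2113 raised, 878 lowered) in place of 54.1%, and the knockout calls 58% raised (3486 raised, 2527 lowered).

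The models shared a large rise. The genes called raised in both numbered 920 (6.44% of those tested), which is 29.3% of the genes the knockout raised and 55.9% of those the diet raised, with medians of 1.12 and 1.37 on the log2 scale. For 807 of them the difference was not called. The genes called lowered in both numbered 623 (4.36%), 20.9% of the knockout list and 44.7% of the diet list, with medians of -0.62 and -0.56. Opposite calls were fewer: 172 genes (1.2%) rose in the knockout and fell on the diet, and 131 (0.917%) fell in the knockout and rose on the diet. Across all genes tested the 2 effects had a Pearson correlation of 0.4 and a Spearman correlation of 0.39, and across the 1846 genes called in both, of 0.66 and 0.63; these describe genes, which are not independent replicates. Without chow replicate 1 or 2 the genes raised in both numbered 422 or 551, and without high fat replicate 1 or 2, 459 or 581; those lowered in both numbered 282, 367, 195 and 370 without the same libraries in that order. The genes raised by the knockout and lowered by the diet numbered 96 without chow replicate 1 and 81 or 83 without high fat replicate 1 or 2, and those with the opposite pattern 52 and 59 without chow replicates 1 and 2 and 64 and 69 without high fat replicates 1 and 2.

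**Figure D1:**
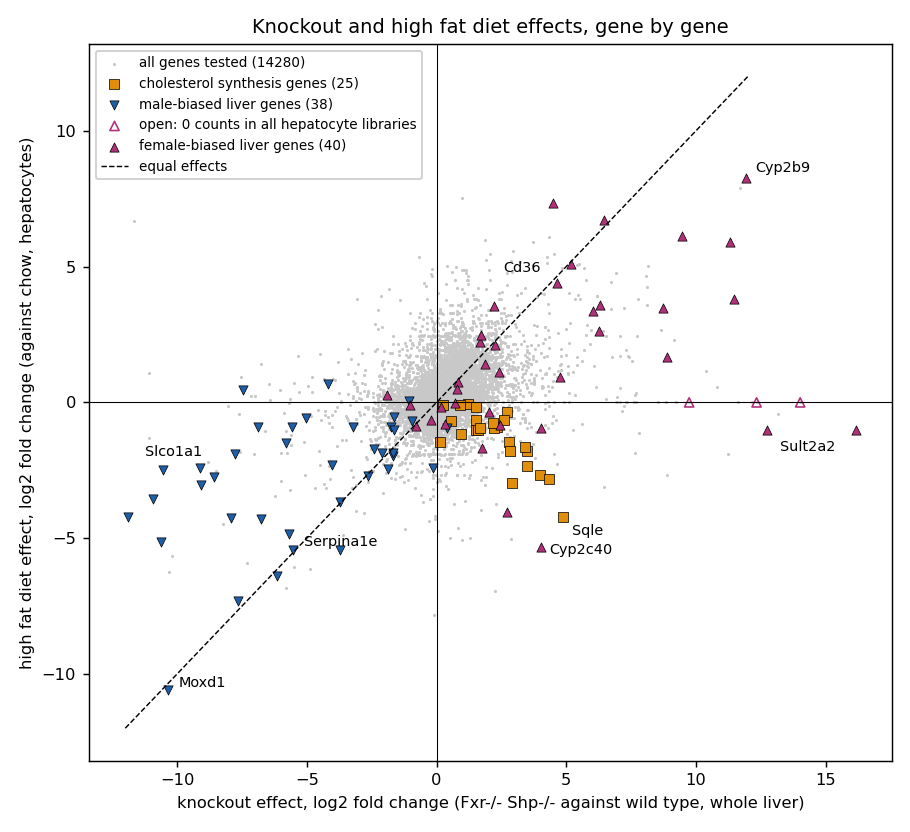
Each point is a gene tested, with its knockout effect (Fxr-/- Shp-/- against wild type, whole liver) on the horizontal axis and its high fat diet effect (against chow, hepatocytes) on the vertical axis, both as log2 fold changes. The dashed line marks equal effects and open symbols mark genes at 0 counts in all hepatocyte libraries. Male-biased liver genes lie towards the lower left, female-biased genes spread to the upper right, and the 25 cholesterol synthesis genes sit to the right of 0 and at or below 0 on the diet axis.

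The libraries also differed in RNA of other liver cells. Hepatocyte marker transcripts (7 of 8 symbols listed are in the table, among them Alb and Ttr) summed to 88290 to 115200 CPM in wild type liver, 64150 to 83410 in Fxr-/- Shp-/- liver, 100400 to 103300 in chow hepatocytes and 97780 to 99030 in high fat hepatocytes. The 25 stellate cell and matrix markers summed to 416 to 646 CPM in wild type and 812 to 940 in knockout liver, and to 50.8 to 59.9 in chow and 108 to 124 in high fat hepatocytes. The 21 sinusoidal endothelial markers summed to 248 to 440 and 434 to 603 CPM in liver and to 128 to 130 and 301 to 311 in hepatocytes, and the 22 macrophage and Kupffer cell markers to 375 to 769 and 616 to 1160 CPM in liver and to 122 to 139 and 175 to 192 in hepatocytes. In hepatocytes all 3 sums were higher on the high fat diet with no overlap; in whole liver the stellate cell sums did not overlap, and the endothelial and macrophage sums of wild type and knockout libraries did. The 23 lymphocyte and neutrophil markers summed to 17.8 to 21.5 CPM in wild type and 22.7 to 46.8 in knockout liver, with no overlap, and to 3.35 to 4.54 and 4.15 to 4.68 in hepatocytes, where the groups overlapped. The knockout raised 2 of the 10 that were tested (22% of all genes rose) and lowered none. The 2 were the neutrophil genes S100a8 (5.08) and Retnlg (2.12). S100a8 was at 0.866, 0.176 and 0.115 CPM in wild type and 17.7, 14.6 and 8.85 in the knockout. The gap between the liver sums thus rests on this gene. S100a9, its neutrophil partner, was not called (0.9, adjusted p = 0.098), and nor were the negative effects of Igkc (-0.87) and Il2rb (-0.61). Ly6g, another neutrophil gene, was at 0 in all 10 libraries. In such bulk libraries, fewer cells of a type and less RNA per cell cannot be told apart.

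**Figure D2:**
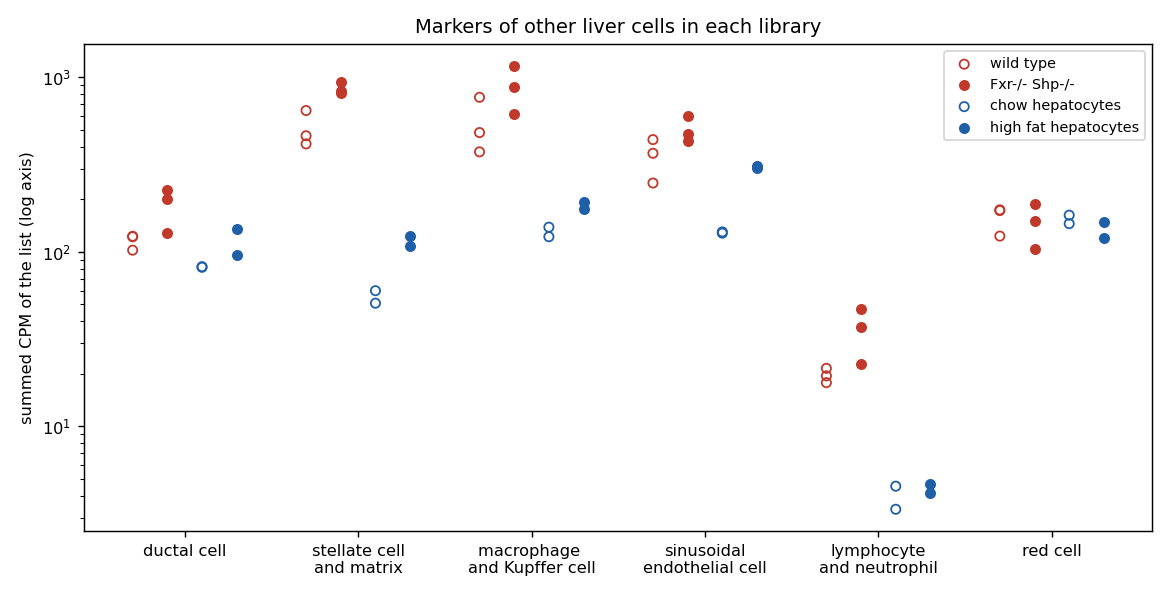
Summed CPM (log axis) of 6 marker lists of other liver cells in each of the 10 libraries, with open symbols for controls and filled symbols for Fxr-/- Shp-/- and high fat libraries. Stellate cell and endothelial sums are at 50.8 to 130 CPM in chow hepatocytes and at 108 to 311 CPM in high fat hepatocytes, with whole liver above the hepatocytes of its kind for the stellate cell and macrophage lists.

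Among the genes that rose most in both models were enzymes and transporters that are typical of female liver. Cyp2b9, a steroid-hydroxylating cytochrome P450 (chr7:26173411-26210661), was at 0, 0.176 and 0.0573 CPM in wild type and 295, 332 and 292 in Fxr-/- Shp-/- liver. Chow hepatocytes held 0.196 and 0.984 CPM and high fat hepatocytes 219 and 161. It was thus close to absent in every control library and far above all controls in every treated library. Its log2 fold change was 11.95 (SE 0.52, adjusted p = 9.96e-08) in the knockout and 8.28 (SE 0.45, adjusted p = 5.29e-06) on the diet, and the difference of 3.67 (adjusted p = 0.0307) was not called without chow replicate 2 (2.05), high fat replicate 2 (3.45) or wild type replicate 1 (3.04) or 3 (3.53). Cyp2a4, a testosterone 15-alpha-hydroxylase, was at 0.714, 0.529 and 0.573 CPM in wild type and 234, 210 and 330 in knockout liver. Chow hepatocytes held 0.215 and 0.656 CPM and high fat hepatocytes 5.86 and 4. Cyp2a4 rose in both models (8.72 and 3.46) and more in the knockout (difference 5.26, adjusted p = 0.000315). The organic anion transporter Slc22a27 rose by 6.44 in the knockout; on the diet it had 2 counts in the chow libraries together and 2.42 and 2.14 CPM in the high fat libraries, a ratio of 124 with a 95% counting interval of 34.1 to 1030. Cyp2b13, a close relative of Cyp2b9, went from 2 to 7231 counts with the knockout, a ratio of 2770 (766 to 22900), and from 2 to 176 counts with the diet, a ratio of 71.3 (19.4 to 593). Cyp2b, Cyp2a and Sult2a genes are near-identical within their families, and the counting kept uniquely aligned reads, so the split of reads between family members is uncertain.

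Over the whole female-biased list, 40 of 43 genes were tested. Of all genes, 22% rose and 20.8% fell in the knockout, and 11.5% rose and 9.77% fell on the diet. The knockout raised 33 and lowered 3, the diet raised 17 and lowered 2, and the 17 raised by the diet were also raised by the knockout, against 6.44% of all genes. That shared count was 11 without chow replicate 1 and 11 without high fat replicate 2. The median effect was 4.02 in the knockout and 0.83 on the diet, and 3.63 and 1.11 when genes with no counts in a control are set to the smallest fold that 3 counts allow and the 7 genes at or below that floor in both hepatocyte groups are left out. The difference was called higher for 12 genes (7.98% of all genes were) and lower for 2, but the 12 include Sult2a1 and Sult2a2, which are under the floor in both hepatocyte groups.

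The fatty acid translocase Cd36 (chr5:17781690-17888801), which takes up long-chain fatty acids, was at 8.82, 12.7 and 13.6 CPM in wild type and 285, 262 and 332 in Fxr-/- Shp-/- liver. Chow hepatocytes held 3.76 and 12.4 CPM and high fat hepatocytes 221 and 120. The treated libraries did not overlap their controls in either experiment and reached a similar level in both. Cd36 rose by 4.65 (SE 0.41) and 4.39 (SE 0.49), and the difference of 0.26 (SE 0.57, adjusted p = 0.801) was not called. Ly6d, a surface antigen of epithelial and lymphoid progenitors, went from 0.0588 to 0.458 CPM in wild type to 13 to 42.7 in the knockout and from 0.117 and 0.276 in chow to 5.97 and 2.86 in high fat hepatocytes, log2 fold changes of 6.71 and 4.44. Sprr1a, a cornified envelope precursor induced in stressed epithelia, had no counts in the wild type and chow libraries and was at 10.5, 13.7 and 9.38 CPM in the knockout and 1.29 and 0.301 on the diet, at least 66.95-fold and at least 14.4-fold higher against a floor of 3 counts per library. The neurotrophin receptor Ntrk2 was at 10.1, 10.1 and 1.53 CPM in the knockout libraries and 9.36 and 27.3 in the high fat libraries, against at most 0.515 in the controls.

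Some genes of fat storage rose with Cd36. Mogat1, which makes diacylglycerol, rose by 6.2 in the knockout and 3.92 on the diet, the lipoprotein receptor Vldlr by 4.29 and 2.68, and the adipogenic receptor Pparg by 2.03 and 1.01. Vldlr was at 1.02, 1.53 and 1.6 CPM in wild type and 23.5, 26.3 and 31.2 in the knockout. Chow hepatocytes held 0.333 and 0.173 CPM and high fat hepatocytes 2.17 and 1.05. Control and treated libraries did not overlap in either experiment. Of 33 genes of lipid droplets and fat uptake tested, the knockout raised 18 and lowered 5 (22% and 20.8% of all genes) and the diet raised 8 and lowered 3 (11.5% and 9.77%), with 6 raised in both (6.44%). The diet raised 5 without chow replicate 1 and 5 without high fat replicate 1.

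Genes known from fetal liver and liver tumours formed a further shared rise: of 33 tested, 29 rose and 2 fell in the knockout (22% and 20.8% of all genes) and 15 rose and 4 fell on the diet (11.5% and 9.77%), with medians of 1.72 and 1.39. All 15 also rose in the knockout, against 6.44% of all genes raised in both, and 9 did so without chow replicate 1. Fabp5 and Sox9, a progenitor and duct transcription factor, rose in the knockout and fell on the diet; the diet call of Sox9 (-1.36) was lost without chow replicate 1 (-1.53), chow replicate 2 (-1.17) or high fat replicate 1 (-0.82). Lgals1, a beta-galactoside-binding lectin, was at 1.99, 1.76 and 2.18 CPM in wild type and 110, 121 and 99.6 in Fxr-/- Shp-/- liver. Chow hepatocytes held 3 and 5.09 CPM and high fat hepatocytes 32.5 and 25.8. Anxa2, a membrane-binding annexin, rose by 2.74 and 3.23, and Osbpl3, an oxysterol-binding protein relative, by 3.26 and 4.04. Lgals1 and Anxa2 are abundant in mesenchymal and endothelial cells too, whose marker sums moved with them as given above; their part in these changes was not tested.

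Stellate cell and endothelial markers rose themselves. Of all genes tested, 22% rose in the knockout, 11.5% on the diet and 6.44% in both. Of 25 stellate cell and matrix genes, 20 rose in the knockout and 19 on the diet, 15 in both (9 without chow replicate 2). The fibrillar collagen Col1a1 was at 3.82, 5.64 and 2.29 CPM in wild type and 24.2, 22.1 and 15.4 in Fxr-/- Shp-/- liver. Chow hepatocytes held 0.0587 and 0.0345 CPM and high fat hepatocytes 0.894 and 0.723. Its level in either hepatocyte group was below every whole liver library, while its log2 fold changes were 2.39 and 4.04 and did not differ by the test (difference -1.65, adjusted p = 0.184). Col4a1, a basement membrane collagen that hepatocytes also express, rose in the knockout (1.78) and not on the diet (-0.32), and the difference of 2.1 was called (SE 0.22, adjusted p = 0.000157). Of 21 sinusoidal endothelial markers, 9 rose in the knockout and 20 on the diet, among them the scavenger receptor Stab2 (0.76 and 1.15). The knockout raised 3 without wild type replicate 1 or without Fxr-/- Shp-/- replicate 1, and the diet 8 and 12 without chow replicates 1 and 2.

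Mitosis genes rose in both models, but the diet calls leaned on single libraries. Of 38 tested, 28 rose in the knockout and 15 on the diet, 13 in both, with median effects of 1.81 and 1.23. The shares of all genes were 22%, 11.5% and 6.44%. Mki67, expressed in all cycling cells, was at 0.663, 0.999 and 0.573 CPM in wild type and 2.94, 2.56 and 2.94 in the knockout. Chow hepatocytes held 0.313 and 0.639 CPM and high fat hepatocytes 1.8 and 1.16. It rose by 1.92 and 1.62, the latter not called without chow replicate 1 (1.21) or high fat replicate 1 (1.32). The diet raised 2 of the 38 genes without chow replicate 1, 4 without high fat replicate 1 and 7 without high fat replicate 2, and 1, 3 and 5 of them were then raised in both. Ccnd1, the cyclin that admits cells to the cycle, was at 3.77, 4.23 and 5.67 CPM in wild type, 54.4, 50.4 and 28.4 in the knockout, 19.2 and 21.7 in chow and 47.5 in both high fat libraries. It rose by 3.29 in the knockout and 1.22 on the diet (not called without chow replicate 1, 1.13), with a difference of 2.07 (adjusted p = 0.00272).

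The deepest shared fall was in male-biased genes. Serpina1e, a serine protease inhibitor of the alpha-1-antitrypsin family secreted by male mice, was at 8747, 8398 and 10250 CPM in wild type and 195, 194 and 209 in Fxr-/- Shp-/- liver. Chow hepatocytes held 7429 and 12840 CPM and high fat hepatocytes 209 and 258. Control and treated libraries lay far apart in both experiments, and the treated libraries of both were at 194 to 258 CPM. The log2 fold changes were -5.52 (SE 0.22, adjusted p = 5.37e-08) and -5.44 (SE 0.27, adjusted p = 4.41e-06), with a difference of -0.08 (SE 0.29, adjusted p = 0.882). Cyp7b1, the oxysterol 7-alpha-hydroxylase of the alternative bile acid pathway, was at 205, 253 and 283 CPM in wild type and 20.5, 20.4 and 15.6 in the knockout. Chow hepatocytes held 1329 and 772 CPM and high fat hepatocytes 87.5 and 77.6. Cyp7b1 fell by 3.72 and 3.67. Moxd1, a monooxygenase relative of dopamine beta-hydroxylase (chr10:24223517-24302790), was at 9.53, 2 and 1.6 CPM in wild type and had no count in the knockout, at least 34.32-fold lower; in hepatocytes it went from 116 and 196 CPM on chow to 0.103 and 0.0903 on the high fat diet, a log2 fold change of -10.61 (SE 0.93, adjusted p = 0.000222).

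All 38 male-biased genes listed were tested. The knockout lowered 36 (20.8% of all genes) and the diet 29 (9.77%), with 27 lowered in both against 4.36% of all genes, and neither raised any. The medians were -5.28 and -2.36. The difference was called lower for 19 genes (8.11% of all genes) and higher for 2, Cyp1a2 and Cyp2c70. Slco1a1, a sinusoidal uptake carrier for bile acids and steroid sulfates (chr6:141907282-141946962), was at 231, 301 and 251 CPM in wild type and 0.432, 0.0441 and 0.0403 in Fxr-/- Shp-/- liver. Chow hepatocytes held 893 and 835 CPM and high fat hepatocytes 153 and 155. It was nearly absent from the knockout and fell by 2.49 on the diet, a difference of -8.07 (SE 0.45, adjusted p = 2.24e-06). Elovl3, which elongates saturated and monounsaturated fatty acids, showed the same contrast, with falls of 9.11 and 2.4 (difference -6.71, adjusted p = 6.24e-05).

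The major urinary proteins, pheromone carriers secreted by liver, held both patterns. Mup15, Mup17 and Mup9 fell in both models, by 7.67, 6.17 and 5.48 in the knockout and by 7.32, 6.4 and 6.06 on the diet. Their differences of -0.35, 0.23 and 0.58 were not called (SE 0.85, 1 and 0.88). Mup16 fell by 7.3 and 5.9, and its difference was not called either (adjusted p = 0.0995). Mup7 was at 5842, 4426 and 5778 CPM in wild type and 3.89, 0.176 and 0.161 in the knockout. Chow hepatocytes held 7636 and 7688 CPM and high fat hepatocytes 490 and 324, and the difference of the effects was -7.67 (adjusted p = 0.00059). Mup1 (difference -7.36) and Mup14 (difference -4.54) followed Mup7, and Mup3 fell by 6.87 in the knockout while its diet effect of -0.92 was not called (adjusted p = 0.331). The genes of this cluster share most of their sequence, so the values of single Mup genes carry the uncertainty of how reads were split.

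**Figure D3:**
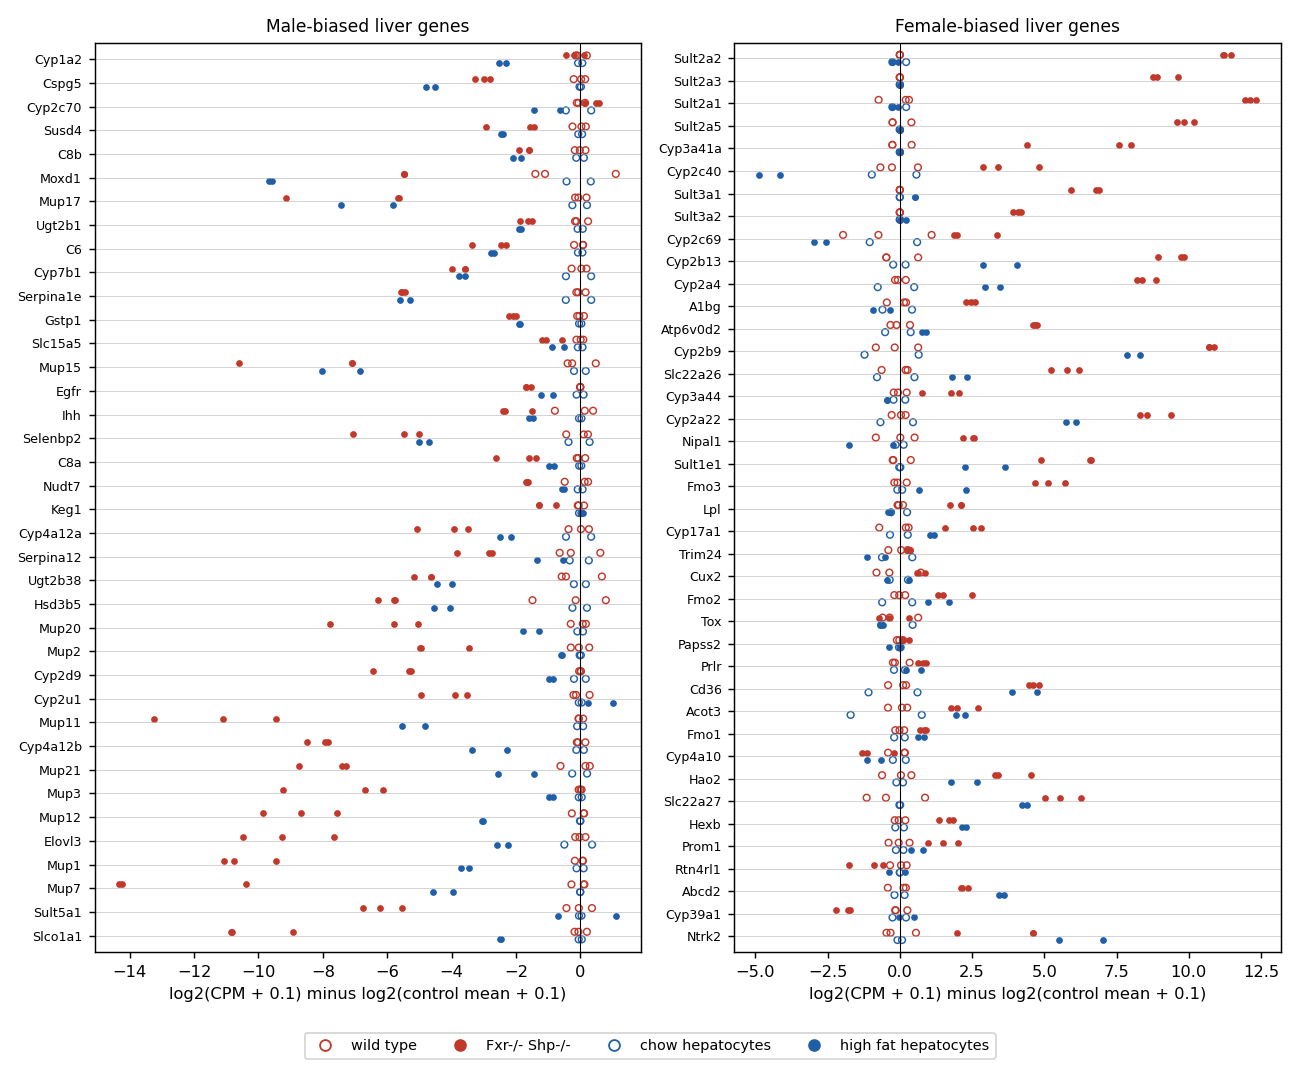
Log2(CPM + 0.1) of each library minus the log2 of its control mean + 0.1, for 38 male-biased genes (left) and 40 female-biased genes (right), ordered by the difference of the effects; red is the knockout experiment, blue the diet experiment, open symbols are controls and filled symbols Fxr-/- Shp-/- or high fat libraries. Serpina1e and Cyp7b1 show red and blue filled symbols at one distance from 0, while Mup7 and Slco1a1 show the red symbols several log2 units farther out than the blue.

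Cholesterol synthesis parted the models most clearly among the 36 lists examined, with the largest median difference, 3.08 on the log2 scale against -0.04 over all genes. Of 25 genes, all tested, 24 rose in the knockout (22% of all genes) and 20 fell on the high fat diet (9.77%). Both held for 19 (1.2% of all genes), and the difference was called higher for 24 (7.98% of all genes). No member fell in the knockout or rose on the diet. Leaving out 1 library at a time gave 22 to 24 genes raised in the knockout, 15 to 21 lowered on the diet, 14 to 20 in opposite directions and 23 to 24 called in the difference. A fit with all 26 libraries of the series, which takes its spread from all 10 groups, called 23 raised in the knockout, 9 lowered on the diet and 20 in the difference.

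The promoters of these genes are shown here because the members moved together. Of the 25 genes, 17 have a promoter entry in RefSeq (GRCm38.p6), and the 250 bases before the start were searched on both strands for the CCAAT box, the binding motif of NF-Y, which acts beside SREBP proteins on sterol genes, and for the sterol regulatory element core TCACNCCAC. The CCAAT box, as CCAAT or its complement ATTGG, was found in 16 of the 17 genes (94.1%), all but Acat2, against 37.5% of 27025 genes with an entry. The share was 66.7% of 21 fatty acid synthesis genes, 46.2% of 26 CAR and PXR target genes, 31% of 29 male-biased and 27.6% of 29 female-biased genes. The sterol core was found in 1 of the 17 genes (5.88%, against 1.22% of 27025), 137 bases before the start of Hmgcs1, and it does not overlap a CCAAT box there. Such a match describes letters and is no evidence of binding. The windows below belong to the genes with the largest differences among members whose window holds no annotated exon, and to Ebp, the member not called. They run 5′ to 3′ on the gene's strand up to the base before the start, with both motifs in capitals. The genes are Mvd, mevalonate diphosphate decarboxylase (chr8:122443423-122443672, minus strand, difference 5.08), and Hmgcs1, the cytosolic HMG-CoA synthase (chr13:119690101-119690350, plus strand, difference 3.26). Next are Pmvk, phosphomevalonate kinase (chr3:89454291-89454540, plus strand, difference 2.62, the first of 2 windows), and Sc5d, the lathosterol desaturase (chr9:42264301-42264550, minus strand, difference 0.97). The last is Ebp, the sterol delta-isomerase (chrX:8193513-8193762, minus strand, difference 0.34, not called).
Mvd: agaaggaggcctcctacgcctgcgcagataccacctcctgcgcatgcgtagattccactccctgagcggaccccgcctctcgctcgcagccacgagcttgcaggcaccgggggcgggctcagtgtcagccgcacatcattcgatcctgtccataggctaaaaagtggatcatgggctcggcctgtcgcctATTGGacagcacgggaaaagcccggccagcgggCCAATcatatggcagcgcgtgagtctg
Hmgcs1: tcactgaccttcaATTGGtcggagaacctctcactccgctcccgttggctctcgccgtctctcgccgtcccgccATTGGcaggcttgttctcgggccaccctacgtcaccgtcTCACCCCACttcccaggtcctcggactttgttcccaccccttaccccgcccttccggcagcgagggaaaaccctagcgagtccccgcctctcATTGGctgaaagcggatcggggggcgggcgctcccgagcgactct
Pmvk: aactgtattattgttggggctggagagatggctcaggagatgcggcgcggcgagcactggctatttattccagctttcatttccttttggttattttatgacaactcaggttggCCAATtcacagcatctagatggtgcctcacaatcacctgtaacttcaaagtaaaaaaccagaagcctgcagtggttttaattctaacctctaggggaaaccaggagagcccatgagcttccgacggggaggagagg
Sc5d: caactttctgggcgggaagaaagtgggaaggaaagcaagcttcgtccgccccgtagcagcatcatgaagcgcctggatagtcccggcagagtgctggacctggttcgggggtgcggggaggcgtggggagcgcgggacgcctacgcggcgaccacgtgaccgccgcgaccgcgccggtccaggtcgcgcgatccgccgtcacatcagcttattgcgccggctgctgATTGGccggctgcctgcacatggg
Ebp: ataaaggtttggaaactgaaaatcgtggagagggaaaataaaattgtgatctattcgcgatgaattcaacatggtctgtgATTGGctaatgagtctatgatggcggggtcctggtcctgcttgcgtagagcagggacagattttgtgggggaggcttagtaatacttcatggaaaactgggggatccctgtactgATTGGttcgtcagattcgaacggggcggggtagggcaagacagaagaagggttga
The number of CCAAT boxes was 2 in Mvd, 3 in Hmgcs1, 1 in Pmvk, 1 in Sc5d and 2 in Ebp, so among these 5 windows the gene with the smallest difference and the gene with the largest hold the same number.

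In the pathway's upper part, Idi1, the isopentenyl isomerase (chr13:8885501-8892451), was at 0.51, 0.823 and 0.916 CPM in wild type and 17.2, 18.5 and 9.38 in the knockout. Chow hepatocytes held 32.8 and 29.2 CPM and high fat hepatocytes 4.49 and 4.16. Fdps, farnesyl diphosphate synthase (chr3:89093588-89101959), was at 0.917, 1.06 and 0.916 CPM in wild type and 14.5, 17.8 and 13.8 in the knockout. Chow hepatocytes held 3.13 and 2.73 CPM and high fat hepatocytes 0.44 and 0.482. For both genes all knockout and chow libraries lay above all wild type and high fat libraries. The chow level of Fdps was nearer to wild type than to the knockout. The differences were 7.17 (SE 0.42) for Idi1 and 6.65 (SE 0.27, adjusted p = 3.26e-07) for Fdps.

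In the sterol branch, the squalene epoxidase Sqle (chr15:59315077-59331192), which carries out the first oxygen-dependent step, was at 2.7, 2.41 and 2.98 CPM in wild type and 85.9, 99.9 and 53.6 in Fxr-/- Shp-/- liver. Chow hepatocytes held 49.4 and 46.6 CPM and high fat hepatocytes 3.86 and 1.31. All knockout and chow libraries lay above all wild type and high fat libraries. Its log2 fold changes were 4.88 (SE 0.37, adjusted p = 4.45e-06) and -4.21 (SE 0.41, adjusted p = 0.000134), a difference of 9.1 (SE 0.57, adjusted p = 4.11e-06). The lanosterol demethylase Cyp51 followed, at 16.1, 16.4 and 17.6 CPM in wild type and 195, 217 and 145 in the knockout. Chow hepatocytes held 128 and 125 CPM and high fat hepatocytes 27.3 and 22.3. The difference of Cyp51 was 5.82 (adjusted p = 3.26e-07). The last steps differed from the others: Tm7sf2, the sterol C14-reductase, fell on the diet (-1.45) with no call in the knockout (0.15, adjusted p = 0.155), Sc5d rose in the knockout (0.89) with no call on the diet (-0.08), and Ebp was at 161, 131 and 156 CPM in wild type and 177, 186 and 173 in the knockout. Chow hepatocytes held 196 and 194 CPM and high fat hepatocytes 182 and 187. The difference of Sc5d (0.97, adjusted p = 0.0314) was called only with all 10 libraries or without Fxr-/- Shp-/- replicate 3, and ranged from 0.81 to 1.01 without any of the other 9.

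Genes that sense sterols went with synthesis in part. Insig1, the sterol-dependent retention factor of SREBP2, was at 38.4, 32.1 and 44 CPM in wild type and 245, 298 and 243 in the knockout. Chow hepatocytes held 232 and 257 CPM and high fat hepatocytes 86.1 and 92.8. Insig1 rose by 2.78 and fell by 1.45. Srebf2, which encodes SREBP2, had effects of 0.56 and -0.7 and a difference of 1.26 (adjusted p = 0.00666). The knockout call was lost without wild type replicate 1 or 2 or Fxr-/- Shp-/- replicate 1 or 2 (0.42 to 0.55), and the diet call without any of the 4 hepatocyte libraries (-0.6 to -0.8).

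The controls themselves differed for this pathway. In all 25 cholesterol synthesis genes every chow hepatocyte library lay above every wild type liver library, with a median log2 difference of 1.51, against 5248 of 14280 genes and a median of 0.04. The chow hepatocytes had been fasted and the wild type livers came from fed mice of another age, so tissue, feeding and age cannot be told apart as sources of that offset. The assignment of reads also differed between these controls. Reads not aligned uniquely made up 43.6% in wild type and 24.2% in chow libraries, and pseudogenes summed to 10500 to 11600 CPM in wild type liver and 1040 to 1600 in chow hepatocytes. Gapdh, a glycolytic gene with many pseudogene copies, was at 2.19, 2.94 and 2.23 CPM in wild type and 861 and 848 in chow libraries. Within each experiment the pseudogene sums were closer, at 9050 to 10300 CPM in knockout liver and 1030 to 1340 in high fat hepatocytes. The share of reads not aligned uniquely was 26.4% in knockout and 19.2% in high fat libraries. It thus differed within each experiment too, and more so in the knockout experiment. The part of read assignment in the offset and in the 2 effects was not tested. Levels set side by side across the experiments carry this limit, and so does the knockout effect.

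**Figure D4:**
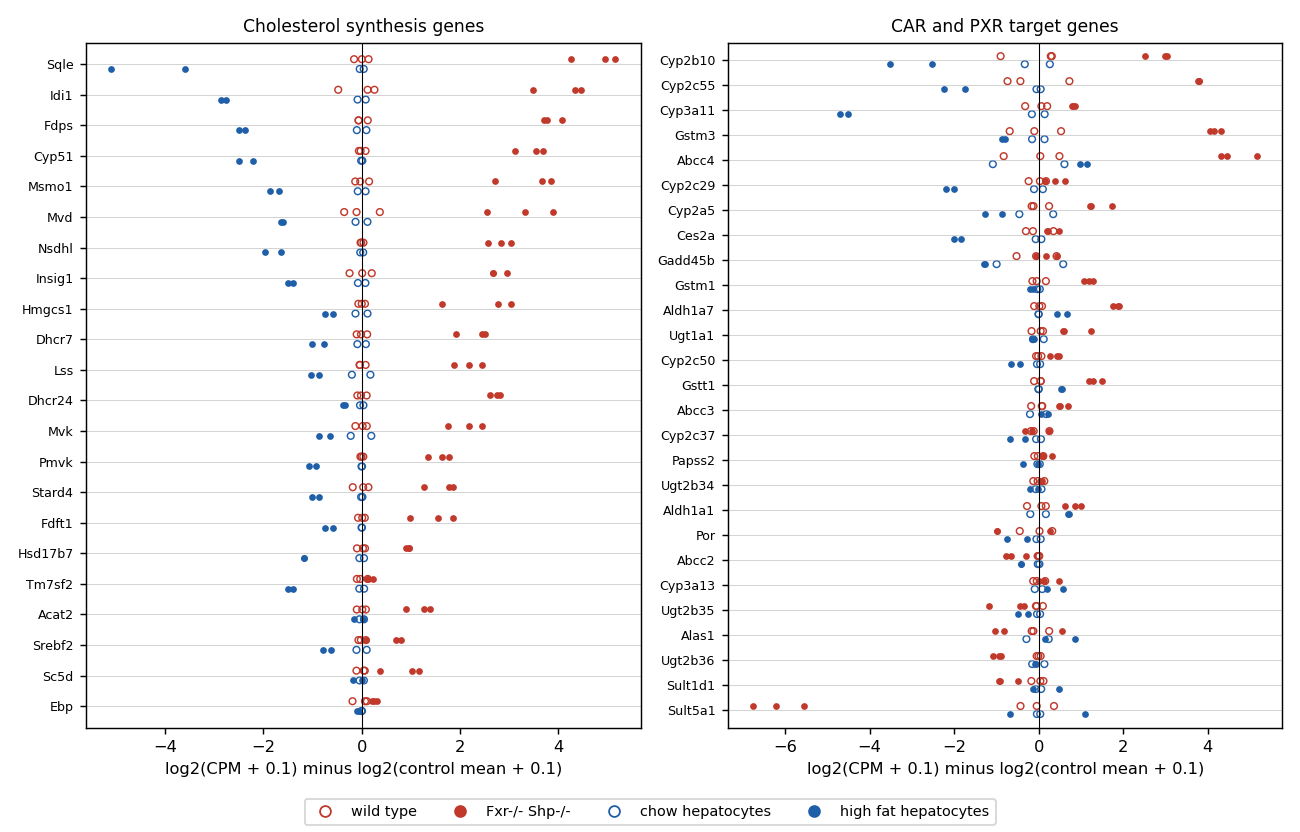
Log2(CPM + 0.1) of each library minus the log2 of its control mean + 0.1, for 22 of the 25 cholesterol synthesis genes (left) and 27 CAR and PXR target genes (right), ordered by the difference of the effects; red is the knockout experiment, blue the diet experiment, open symbols are controls and filled symbols Fxr-/- Shp-/- or high fat libraries. Filled red and filled blue symbols lie on opposite sides of the controls from Sqle down to Hsd17b7, and close in on the controls at Ebp.

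Fatty acid synthesis was split between genes that parted and genes that rose together. Fasn, the fatty acid synthase, was at 44.6, 41.8 and 47.1 CPM in wild type and 331, 373 and 262 in Fxr-/- Shp-/- liver. Chow hepatocytes held 226 and 303 CPM and high fat hepatocytes 108 and 109. It rose by 2.85 in the knockout and fell by 1.28 on the diet (difference 4.13, SE 0.23, adjusted p = 2.24e-06), and the knockout and chow libraries overlapped in level. The stearoyl-CoA desaturase Scd1 was at 437, 497 and 336 CPM in wild type and 6704, 4717 and 5571 in the knockout, with a diet effect of 0.67 that was not called (adjusted p = 0.0714) and a difference of 3.07 (adjusted p = 0.00014). Elovl6, which extends palmitate, rose by 2.33 in the knockout, with -0.65 on the diet not called (adjusted p = 0.191). Srebf1, the transcription factor of this pathway, rose in both (0.95 and 0.72, the latter not called without chow replicate 1, 0.58, or high fat replicate 1, 0.63), and Acly, ATP citrate lyase, was called in neither (0.19 and 0.16). Of 27 genes tested, 18 rose and 3 fell in the knockout (22% and 20.8% of all genes), and 4 rose and 10 fell on the diet (11.5% and 9.77%). The knockout raised and the diet lowered 6 (1.2% of all genes), and the difference was higher for 13 (7.98%). The diet lowered 6 without chow replicate 1 and 4 without high fat replicate 1, and 3 were then in opposite directions without the latter.

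Among the small fatty acid binding proteins, Fabp5 and Fabp2 moved in opposite directions in the models, Fabp4, the adipocyte form, rose in both (1.53 and 2.04, the latter not called without chow replicate 1, 1.8, or high fat replicate 1, 1.66), and Fabp1, the liver form, was called in neither (-0.24 and -0.42). Fabp5, the epidermal form, was at 1.53, 3.06 and 1.72 CPM in wild type and 5.36, 5.38 and 9.86 in the knockout. Chow hepatocytes held 29.4 and 22 CPM and high fat hepatocytes 1.75 and 1.55 (difference 5.68, adjusted p = 2.87e-05). Fabp2, the intestinal form, was at 57.1, 40.9 and 46.6 CPM in wild type and 11, 13.7 and 11 in the knockout. Chow hepatocytes held 55.3 and 45.9 CPM and high fat hepatocytes 117 and 118 (difference -3.24, adjusted p = 5.73e-06). Neither Fabp5 nor Fabp2 showed overlap of treated and control libraries in either experiment.

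The inducible cytochromes P450 formed a second parting set. Cyp2b10, the classical target of CAR (chr7:25897620-25926624), was at 25.5, 58.2 and 59.2 CPM in wild type and 394, 272 and 382 in Fxr-/- Shp-/- liver. Chow hepatocytes held 4.27 and 6.49 CPM and high fat hepatocytes 0.381 and 0.858. All hepatocyte libraries lay below all liver libraries, and within each experiment the groups were apart. Cyp2b10 rose by 2.88 (SE 0.32) in the knockout and fell by 3.12 (SE 0.49) on the diet, a difference of 5.99 (SE 0.58, adjusted p = 9.38e-05), and none of the 3 was called in a fit with all 26 libraries. Cyp3a11, a main target of PXR, was at 13470, 19320 and 17570 CPM in wild type and 29320, 30570 and 29250 in the knockout. Chow hepatocytes held 3252 and 4011 CPM and high fat hepatocytes 139 and 158. Its rise in the knockout was small (0.82) and its fall on the diet large (-4.61, SE 0.22, adjusted p = 4.41e-06). Cyp2c55 rose by 3.81 and fell by 2.06, and Cyp2c40, a female-biased arachidonate hydroxylase, rose by 4.01 and fell by 5.31, from 6.83 and 2.28 CPM in chow to 0.161 and 0.0602 in high fat hepatocytes.

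Of the 27 CAR and PXR target genes tested, 14 rose and 5 fell in the knockout, and 3 rose and 7 fell on the diet. The difference was higher for 13 and lower for 3, against 7.98% and 8.11% of all genes. Of all genes, 22% rose and 20.8% fell in the knockout, and 11.5% rose and 9.77% fell on the diet. The knockout raised and the diet lowered 1.2% of all genes. The genes raised by the knockout and lowered by the diet were 6 (3 without high fat replicate 1), and the diet lowered 11 without Fxr-/- Shp-/- replicate 3. The genes raised in both were Aldh1a7 (1.85 and 0.55), Gstt1 (1.33 and 0.54) and Aldh1a1 (0.84 and 0.71), of which the diet call remained for Aldh1a7 alone without chow replicate 1 (0.54 for both Gstt1 and Aldh1a1). The call of Aldh1a1 was also lost without high fat replicate 1 (0.79) or 2 (0.7). Nr1i3, which encodes CAR, fell in the knockout (-1.04) with 0.25 on the diet not called (difference -1.28, adjusted p = 0.0115, not called without high fat replicate 2, -1.09), and Nr1i2, which encodes PXR, was called in neither (-0.33 and -0.36). Over all 57 cytochromes P450 of families 1 to 4 that were tested, 23 rose and 14 fell in the knockout and 9 rose and 25 fell on the diet, and 12 were raised by the knockout and lowered by the diet (6, 7 and 7 without chow replicate 1, high fat replicate 1 and high fat replicate 2. The diet lowered 14 and 15 without the former pair).

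Targets of NRF2, the sensor of electrophiles, rose mainly in the knockout, and conjugating enzymes moved both ways. Of 46 glucuronosyl-, sulfo- and glutathione transferase genes tested, 26 rose and 14 fell in the knockout (22% and 20.8% of all genes) and 11 rose and 9 fell on the diet (11.5% and 9.77%), with 10 raised in both (6.44%). Without chow replicate 1, 6 rose on the diet, and 6 in both. Gstm3, a mu-class glutathione transferase, was at 32.4, 75.4 and 48.6 CPM in wild type and 924, 1034 and 876 in Fxr-/- Shp-/- liver. Chow hepatocytes held 23.5 and 19.1 CPM and high fat hepatocytes 12.2 and 11.7. The difference of 5.01 (SE 0.39, adjusted p = 2.23e-05) came with a rise of 4.18 in the knockout and -0.83 on the diet, not called (adjusted p = 0.0636). Gsta1, an alpha-class transferase, rose in both (6.74 and 3.43, difference 3.31, adjusted p = 0.00651, not called without chow replicate 2, 2.51), and the heme oxygenase Hmox1 rose by 2.96 in the knockout with 0.19 on the diet not called (difference 2.78, adjusted p = 0.00221). Nqo1, the quinone reductase, rose in both with a difference that was not called (0.73 and 1.33, adjusted p = 0.117). Of 24 NRF2 target genes tested, 19 rose and 1 fell in the knockout, and 3 rose and 1 fell on the diet (5 rose without Fxr-/- Shp-/- replicate 3). The shares of all genes are those given above for the transferases. The difference was higher for 10 (7.98% of all genes) and lower for none (8.11%).

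The sulfotransferases of bile acids and steroids Sult2a2 and Sult2a1 rose steeply in the knockout. Sult2a2 (chr7:13733505-13779636) had no count in wild type liver and was at 237, 233 and 279 CPM in Fxr-/- Shp-/- liver, at least 1493-fold higher. Sult2a1, the main hydroxysteroid sulfotransferase, was at 0.204, 0.0588 and 0.229 CPM in wild type and 1158, 1035 and 1344 in the knockout, a rise of 12.76 (SE 0.3, adjusted p = 1.46e-09). In the hepatocyte libraries each gene had 2 counts on chow and 1 on the high fat diet, under the floor in both groups, so no diet fold and no difference are given. Of all genes tested, 80 had no count in any of the 4 hepatocyte libraries, 28 of which the knockout raised; a difference of effects cannot be tested for those. Sult5a1, a male-biased sulfotransferase, went the other way, from 13.8, 10.3 and 7.9 CPM in wild type to 0.13, 0.0441 and 0 in the knockout. Chow hepatocytes held 32 and 30.3 CPM and high fat hepatocytes 66.8 and 19.5 (difference -7.95, adjusted p = 0.000485).

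Other genes with large differences followed the knockout alone or nearly so. Ctse, an endosomal aspartic protease, rose by 7.53 in the knockout and 1.51 on the diet, and Fam19a2, a secreted chemokine-like peptide, rose by 6.52 with 0.11 on the diet not called. Rims4, a presynaptic scaffold protein gene, went from 3 to 849 counts in the knockout, a ratio of 217 (73.9 to 1050). Serpina3c was at 34 and 0.518 CPM in the 2 chow libraries and at 9.34 and 0.0301 in the high fat libraries, so that its difference of 9.52 was not called without chow replicate 1 (4.48) or wild type replicate 1 (9.29). Obp2a, an odorant-binding lipocalin, was at 4.23, 9.93 and 7.85 CPM in wild type and had no count in the knockout, at least 57.52-fold lower. Chow hepatocytes held 4.7 and 2.85 CPM and high fat hepatocytes 8.03 and 7.99. Lrit2, a leucine-rich repeat protein gene, fell from 360 to 3 counts, a ratio of 0.00638 (0.00131 to 0.0188).

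Asparagine synthetase, Asns (chr6:7675169-7693254), a target of the amino acid response, had one of the largest opposite changes. It was at 8.66, 5.88 and 9.34 CPM in wild type and 41.1, 47.3 and 84.9 in Fxr-/- Shp-/- liver. Chow hepatocytes held 7.89 and 8.01 CPM and high fat hepatocytes 0.279 and 0.196. Both controls were at one level, above all high fat libraries and below all knockout libraries, and the effects were 2.86 (SE 0.27) and -5.04 (SE 0.44) with a difference of 7.9 (SE 0.51, adjusted p = 5.54e-06). Endoplasmic reticulum chaperones did not go with it: the lectin chaperone Calr fell by 1.18 in the knockout with -0.02 on the diet not called (difference -1.15, adjusted p = 0.00163), Sdf2l1 fell by 2.17 with -0.19 not called (difference -1.98, adjusted p = 0.00171), and Hspa5, the chaperone BiP, fell by 0.78 with a difference of -0.57 that was not called (adjusted p = 0.16). Of 34 genes of the unfolded protein and amino acid responses, 9 rose and 17 fell in the knockout, and 1 rose and 6 fell on the diet. Of all genes, 22% rose and 20.8% fell in the knockout, and 11.5% rose and 9.77% fell on the diet. The guanine nucleotide exchange regulator Srgap3, from outside these lists, rose by 1.29 in the knockout and fell by 4.98 on the diet.

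Immediate early genes, transcription factors that cells switch on within minutes of a stimulus, were mostly higher in chow hepatocytes than in wild type liver: for 15 of 22 every chow library lay above every wild type library. The same held for 5248 of all 14280 genes. Fos was at 0.663, 0.94 and 1.03 CPM in wild type and 4.97, 5.64 and 7.12 in Fxr-/- Shp-/- liver. Chow hepatocytes held 406 and 227 CPM and high fat hepatocytes 220 and 251. Its rise of 2.76 in the knockout and its diet effect of -0.42 (not called, adjusted p = 0.215) therefore start from controls that lie far apart. The growth regulator Myc was at 9.02, 6.41 and 5.33 CPM in wild type and 18.4, 21.5 and 18.8 in the knockout. Chow hepatocytes held 6.68 and 9.27 CPM and high fat hepatocytes 2.51 and 3.28. Myc rose by 1.5 and fell by 1.46 (difference 2.96, adjusted p = 0.000165) from controls that overlap. Of 22 immediate early genes tested, 13 rose and 2 fell in the knockout (22% and 20.8% of all genes), and 3 rose and 3 fell on the diet (11.5% and 9.77%). The difference was higher for 11 and lower for 2 (7.98% and 8.11% of all genes). The 11 became 7 without wild type replicate 1 or 2, Fxr-/- Shp-/- replicate 2, chow replicate 1, or high fat replicate 1 or 2. Myc was not among the 15. In the median, chow hepatocytes exceeded wild type liver by 3.13 on the log2 scale for this list; isolation of the cells, feeding, age and tissue cannot be told apart as sources.

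Genes lowered in the knockout and raised by the diet included matrix, junction and channel proteins. Gpc1, a heparan sulfate proteoglycan of the cell surface, was at 4.99, 6.23 and 5.27 CPM in wild type and 1.08, 1.23 and 0.845 in Fxr-/- Shp-/- liver. Chow hepatocytes held 20.6 and 17.2 CPM and high fat hepatocytes 77.4 and 63.4, and the difference of the effects was -4.28 (SE 0.24, adjusted p = 2.24e-06). Dsg1c, a desmosomal cadherin, was at 3.41, 5.29 and 2.63 CPM in wild type and 1.08, 0.617 and 1.45 in the knockout. Chow hepatocytes held 1.8 and 2.47 CPM and high fat hepatocytes 43.4 and 33.5. Dsg1c fell by 1.83 and rose by 4.16. The water channel Aqp4 followed with -2.38 and 2.9, the keratan sulfate proteoglycan Omd with -3.79 and 1.47, Olfm3 with -2.01 and 1.9, and the serpin Serpina3g with -1.81 and 1.81 (the last not called on the diet without chow replicate 2, 1.71). Groups did not overlap for these genes in either experiment. Cebpe, a granulocyte transcription factor that is present here in hepatocytes at 8.7 to 19.3 CPM, went from 173 counts in wild type to 1 in the knockout, a ratio of 0.00442 (0.000111 to 0.025), and rose by 0.92 on the diet (not called without chow replicate 2, 0.87, or high fat replicate 1, 0.79). Prok1, a secreted angiogenic peptide, had no count in the knockout, at least 2.84-fold lower, and rose by 1.4 on the diet (not called without chow replicate 1 or 2 or high fat replicate 2, 1.01 to 1.44).

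Genes of the liver lobule's zones parted in opposite ways. Among 18 pericentral genes, expressed around the central vein, the difference was higher for 9 and lower for 1 (7.98% and 8.11% of all genes), and 8 fell on the diet (9.77%). Among 18 periportal genes, expressed around the portal vein, it was higher for 1 and lower for 9, and 9 fell in the knockout (20.8%). Both counts of 9 are fragile: the pericentral one was 5 without wild type replicate 3, Fxr-/- Shp-/- replicate 1 or 2, chow replicate 1 or 2 or high fat replicate 2, the periportal one 5 without chow replicate 2 or high fat replicate 2, and the 8 became 5 without high fat replicate 1. Cyp1a2, a pericentral cytochrome P450 that metabolises caffeine, was at 369, 452 and 356 CPM in wild type and 347, 426 and 289 in Fxr-/- Shp-/- liver. Chow hepatocytes held 726 and 663 CPM and high fat hepatocytes 142 and 120 (difference 2.26, SE 0.24, adjusted p = 0.00014). Oat, the pericentral ornithine aminotransferase, rose by 0.93 in the knockout and fell by 1.57 on the diet (difference 2.51, adjusted p = 0.000157).

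On the periportal side, Hal, the enzyme that begins histidine breakdown, was at 491, 560 and 456 CPM in wild type and 121, 105 and 109 in Fxr-/- Shp-/- liver. Chow hepatocytes held 370 and 283 CPM and high fat hepatocytes 662 and 502. It fell by 2.17 in the knockout and rose by 0.84 on the diet (not called without chow replicate 2, 0.65), a difference of -3 (SE 0.22, adjusted p = 1.44e-05). Gls2, the hepatic glutaminase, fell by 1.32 and had 0.55 on the diet (adjusted p = 0.0137, not called without chow replicate 1, chow replicate 2 or high fat replicate 2, 0.52 to 0.58), and Pigr, the receptor that carries IgA into bile, was at 1363, 1307 and 1266 CPM in wild type and 139, 94.7 and 54.8 in the knockout. Chow hepatocytes held 2149 and 2307 CPM and high fat hepatocytes 2809 and 2877 (difference -4.12, adjusted p = 9.81e-05). Apoa4, a lipoprotein component, differed by the other route, with a rise of 3.08 on the diet and 0.61 in the knockout not called (difference -2.47, adjusted p = 0.00267).

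Bile acid carriers changed mostly in the knockout. The canalicular export pump Abcb11, a direct target of FXR, was at 364, 368 and 435 CPM in wild type and 92.3, 102 and 53.9 in Fxr-/- Shp-/- liver. Chow hepatocytes held 623 and 519 CPM and high fat hepatocytes 499 and 440. It fell by 2.23 in the knockout, its diet effect of -0.28 was not called (adjusted p = 0.437), and the difference was -1.95 (SE 0.31, adjusted p = 0.00219). Abcc4, a basolateral exporter, was at 1.02, 1.94 and 2.69 CPM in wild type and 43.5, 39.5 and 71.5 in the knockout, with 1.2 on the diet not called (adjusted p = 0.176) and a difference of 3.58 (adjusted p = 0.0114) that was not called without chow replicate 2 (1.95). Slc10a1, the sodium-dependent uptake carrier, was called in neither (-0.27 and -0.18). Cyp7a1, which limits the rate of bile acid synthesis and is repressed through SHP, was at 298, 224 and 342 CPM in wild type and 645, 633 and 470 in the knockout. Chow hepatocytes held 61.6 and 185 CPM and high fat hepatocytes 67.3 and 383. No effect of Cyp7a1 was called (knockout 1.02, adjusted p = 0.144) in this joint fit, in which the hepatocyte libraries of each group differ widely for this gene, although the 3 knockout libraries lay above the 3 wild type libraries.

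Among liver transcription factors, Hnf4a, the hepatocyte master regulator, fell in both (-0.78 and -0.68, the latter not called without chow replicate 1, -0.65, or high fat replicate 1, -0.45), and Bcl6, a repressor higher in male liver, was at 35.1, 71.3 and 33.2 CPM in wild type and 6.35, 14.5 and 6.08 in the knockout. Chow hepatocytes held 128 and 57.8 CPM and high fat hepatocytes 54.4 and 43.4. Bcl6 fell by 2.38 in the knockout with -0.92 on the diet not called (adjusted p = 0.183). Igf1, the circulating mediator of growth hormone, fell by 1.29 in the knockout with -0.02 on the diet not called (difference -1.27, adjusted p = 0.00401). Of 43 receptor and transcription factor genes tested, 9 rose and 18 fell in the knockout, against 22% and 20.8% of all genes. The diet raised 6 and lowered 6, against 11.5% and 9.77%; it raised 2, 4, 3 and 3 and lowered 3, 3, 2 and 4 without chow replicates 1 and 2 and high fat replicates 1 and 2. The difference was lower for 11 (8.11% of all genes), and for 7 without chow replicate 2 or high fat replicate 2. It was higher for 6, and for 2 to 5 without any 1 of the 10 libraries (7.98% of all genes).

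In the other experiments of the series these gene sets were read without sharing a library with either model. A cholic acid diet, given to mice with floxed Fxr and Shp alleles (n = 3 against 3 on chow, whole liver, no Cre named in the labels), raised 2.27% and lowered 2.5% of the 12577 genes tested in its own fit. Partial hepatectomy in C3H/HeN mice (n = 3, 48 hours after surgery, against 3 sham, whole liver) raised 16.4% and lowered 14.3% of 13753. Of the genes raised in both models, cholic acid raised 36 of 842 tested (4.28%) and hepatectomy 208 of 887 (23.4%). Of the male-biased genes, cholic acid lowered 26 of 37 (70.3%) and hepatectomy 18 of 36 (50%). The female-biased genes did not rise as a set: cholic acid raised 2 and lowered 1 of 25. Hepatectomy raised 3 and lowered 10 of 29 (34.5%). Cholic acid raised 12 of 27 CAR and PXR target genes (44.4%), of which hepatectomy lowered 9 (33.3%). Of the 25 cholesterol synthesis genes, cholic acid lowered 3 and raised none, with a median of -1.39, and hepatectomy raised 2 and lowered 1.

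**Figure D5:**
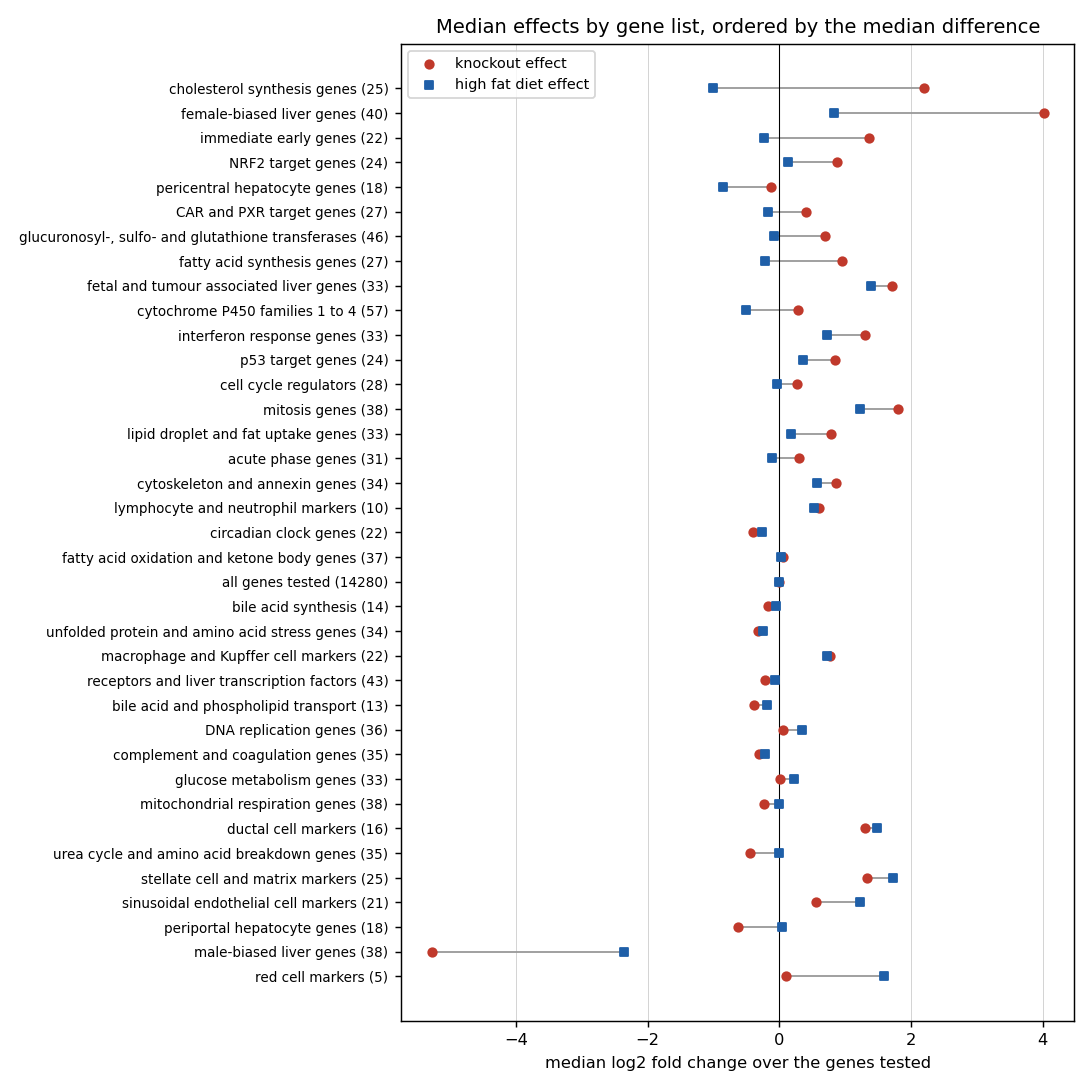
Median log2 fold change of the knockout effect (red circles) and of the high fat diet effect (blue squares) over the tested genes of 36 lists and over all genes, with the number of genes in brackets and the lists ordered by the median of the difference. Cholesterol synthesis genes are at 2.2 and -1.01, male-biased genes at -5.28 and -2.36, and all genes at 0 in both effects.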

How the data were processed

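Gene read counts were deposited by the authors as 1 table of 47643 genes and 5 summary lines of unassigned reads, with 1 column per library. Per the submitters' processing notes, bcl2fastq 2.17.1.14, Trimmomatic, STAR 2.4.2a, Picard 1.119 and HTSeq were used with GRCm38 and mm10; the annotation and strand setting are not given in the sources used here, and TruSeq stranded mRNA libraries were made, per the labels' protocols. Libraries held 16614444 to 22606249 gene counts for whole liver and 58583685 to 70367874 for hepatocytes, which makes low genes more precise in the latter. The summary lines were left out of library sizes; reads not aligned uniquely made up 43.6% of wild type, 26.4% of Fxr-/- Shp-/-, 24.2% of chow and 19.2% of high fat reads. The library of Fxr-/- Shp-/- replicate 3 stood apart from its group.

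The 10 libraries were fitted together by group in edgeR 4.0.16 (R 4.3.3; filterByExpr with a minimum count of 10, TMM, quasi-likelihood test, Benjamini-Hochberg adjustment), and 14280 genes were tested. Contrasts were the knockout effect, the diet effect and the first minus the second; the SE is the log2 fold change over the root of its F. Against control groups with no count, folds were taken at a floor of 3 counts per library; intervals and floors cover counting error only. The test was tried on simulated data, in which 164 of 200 genes changed by 1.5 (log2) were called. The changed genes were drawn from those with higher counts, and no diet effect or outlying library was simulated. That share therefore does not cover genes with low counts. Alternatives were DESeq2 1.42.0, limma-voom (limma 3.58.1), size factor and upper quartile scaling, no filter, a mean count filter, a fold threshold, a replicate block, thinning to the smallest library, each experiment fitted on its own, all 26 libraries and leaving out each library. Other liver experiments were fitted separately.

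The members and lists were chosen with earlier results of these data known. Named were, among genes with an average log2 CPM of at least 1, those with the largest changes shared by both effects (8 raised, 6 lowered), opposite in them (8 each way) or otherwise called in the difference (6 each way), with no overlap of libraries, up to 4 called members of each list, and further members by role; other genes were chosen after their values were seen. Promoters came from RefSeq (GRCm38.p6) and gene positions from the GENCODE annotation of GRCm38, matched for 47224 identifiers without version. Some members of the lists are counted in them but not reported here as single genes.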

Additional observations from a re-analysis of the deposited data

Results flagged for a closer look

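Reads that fall in more than 1 gene enter no comparison above, and their share was higher in the treated libraries of both models. They made up 1.91% of reads in Fxr-/- Shp-/- liver against 1.09% in wild type liver, and 2.08% in high fat against 1.95% in chow hepatocytes. Which genes these reads belong to was not tested.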

How the results depend on the processing

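Counts of calls depended on the settings: of 12791 values of single named genes under the alternatives, 626 lost their call and 140 gained one. None changed direction where the main fit or the alternative called it. Changes of direction with no call in either were not counted. Many of these genes were named for large effects in the same libraries, so this is no test of how stable directions are. With all 26 libraries in 1 fit the difference was called for 1282 genes and the diet effect for 1735, with 583 raised and 237 lowered in both and 58 and 62 opposite (knockout up, knockout down). Thinning to the smallest library left 1998 diet calls and 585 genes raised in both, and upper quartile scaling 369 lowered in both. Requiring a log2 fold change of at least 1 left 1311, 2288 and 1435 genes for the difference, the knockout and the diet, with 470 raised and 111 lowered in both and 51 and 41 opposite. Leaving out 1 library gave 1269 to 2768 for the difference, 4860 to 6168 for the knockout, 1248 to 4063 for the diet, 422 to 1140 raised in both, 195 to 869 lowered in both, 81 to 226 up in the knockout and down on the diet, and 52 to 169 the reverse. The highest count of each of these ranges came without Fxr-/- Shp-/- replicate 3; a hepatocyte library left out leaves 1 sample in its group, assumed to vary like the others. The deviations of samples with the same number had correlations of -0.14, -0.029, -0.03 and 0.086. With so few libraries per group, deviations from the group mean constrain each other, so these values cannot decide whether the numbers mark pairs. With the replicate block the difference was called for 1858 genes, the knockout for 5598 and the diet for 2494. In that fit 746 were raised and 484 lowered in both, and 146 and 110 were opposite. The cause of these changes was not tested. Depth limits genes under the floor of 3 counts in a library, which is 0.167 CPM or less in these groups.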

Other observations

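Transcripts of the terminal complement complex fell in the knockout and in part on the diet. C6 was at 282, 342 and 341 CPM in wild type and 65, 58 and 31.1 in Fxr-/- Shp-/- liver. Chow hepatocytes held 602 and 546 CPM and high fat hepatocytes 90.4 and 83.9, so the groups were apart in both experiments. C6 fell by 2.65 and 2.72 and C8b by 1.69 and 1.96 on the log2 scale, and neither difference was called (adjusted p = 0.906 and 0.377). Hc, which encodes C5, fell by 0.83 and 0.72. Other members parted the models: C8g fell by 1.08 with 0.13 on the diet not called (difference -1.21, adjusted p = 0.00201), and C9 fell by 2.94 with -0.45 not called. The difference of C9 (-2.48, adjusted p = 0.0327) was called with all 10 libraries or without a knockout library, and was lost without any wild type or hepatocyte library (-2.41 to -2.57). C8a fell by 1.77, its diet effect of -0.89 was not called (adjusted p = 0.0563), and nor was its difference of -0.88. Clotting factors fell in the knockout: F7, the initiator of the extrinsic pathway, fell by 0.64 and Proc, the anticoagulant protein C, by 0.76, while their diet effects of 0.04 and -0.13 were not called. Of 35 complement and coagulation genes tested, 3 rose and 20 fell in the knockout, and none rose and 9 fell on the diet, 7 in both (22%, 20.8%, 9.77% and 4.36% of all genes rose or fell in the knockout, fell on the diet or fell in both). The diet lowered 5 of them without chow replicate 2, high fat replicate 1 or high fat replicate 2.

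Glycogen and glucose genes differed gene by gene. Ppp1r3b, which brings a phosphatase to glycogen, fell by 1.55 in the knockout with 0.2 on the diet not called (difference -1.75, adjusted p = 0.00288). G6pc, the glucose-6-phosphatase, was at 468, 316 and 404 CPM in wild type, 80.2, 128 and 220 in the knockout, 435 and 708 in chow and 1121 and 906 in high fat hepatocytes. Its difference of -2.3 (adjusted p = 0.0113) was not called without chow replicate 1 (-2). Of 38 mitochondrial respiration genes, 19 fell in the knockout (20.8% of all genes) and none on the diet (9.77%), and the difference was called for 1 (16.1%). The 19 became 9 without wild type replicate 1, 12 without wild type replicate 3 and 10 without Fxr-/- Shp-/- replicate 1. Hepatic acyl-CoA thioesterase Acot2 rose by 1.79 in both models.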
